A study of Mus musculus with 8 samples.

Results

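Solute carriers are the membrane proteins that move nutrients, ions and metabolites across the plasma membrane and the membranes of organelles. They were taken as every gene whose annotated symbol starts with Slc and a digit, and sorted by the substrate they carry. The arrays held 276 probes for 207 such genes, of 16255 features in all (a feature is a gene, or a probe with no gene symbol). Of these genes, 184 were tested, those with values on 3 or more arrays in each condition, out of 14015 features tested. The other 23 were not tested. Among the 207 are 3 proteins that carry the family's symbol and transport nothing, the scaffold proteins Slc9a3r1 and Slc9a3r2 and the binding protein Slc4a1ap.

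Per the labels, HM-1 and R1, a mouse embryonic stem line each, were compared directly, with a single line on each side of the ratio. The protocol text mentions organs and a pooled reference of control animals, which these labels do not match. The labels are followed here. Both lines were hybridised together on each of 8 cDNA arrays with 2 colours, 4 arrays from untreated cells and 4 after treatment with nocodazole, which breaks down microtubules and arrests cells in mitosis. Dose and time of the drug are not given in the labels. Both lines of an array had the same treatment, so a value is a ratio between lines and not the effect of the drug in either line. The origin of the replicates, separate cultures or one, is not stated in the labels. The p-values therefore cover the spread among these arrays and no more, and that spread may be technical.

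The family works in layers. Facilitators such as the glucose carriers of the Slc2 family let a substrate run down its gradient, cotransporters such as the Slc6 and Slc13 families couple it to the sodium gradient that the sodium-potassium ATPase maintains, and exchangers such as the Slc7 family trade one amino acid for another. Carriers of the Slc25 family serve the inner mitochondrial membrane, Slc35 carriers bring nucleotide sugars into the Golgi and endoplasmic reticulum, and Slc30 and Slc39 proteins move zinc in opposite directions. Embryonic stem cells are known for a high demand for glucose, glutamine and threonine. Slc13a5 is the sodium-coupled citrate transporter of the plasma membrane, best known from liver and brain, where imported citrate can feed the synthesis of fatty acids.

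All values are log2 ratios between HM-1 and R1 with the sign of the deposited table, after centring of each array on its median. The labels do not settle which line is the numerator, so no line is called higher, and a positive value means one line and a negative value the other. HM-1 was labelled with Cy3 on 3 arrays, untreated replicates 3 and 4 and nocodazole replicate 4, and with Cy5 on the other 5. Because the deposited ratios may be dye ratios, the counts of members are also given with the signs of the arrays labelled HM-1 in Cy3 turned. Arrays held 17759 to 19342 values with a standard deviation of 0.78 to 0.91, except nocodazole replicate 3 at 1.28. No intensities were used. Of an array's values 11% to 19.4% lay within 0.0015 (log2) of a quotient of small whole numbers (up to 10), with an offset allowed per array. After a shift of 0.05 the share was 4.38% to 5.03%. The excess over that share was taken as a mark of very dim spots, though no single match identifies one. Nocodazole replicate 1 stood apart in its signs. Of 333 features that were negative on the other 7 arrays and had a value on it, 304 (91.3%) were positive there. The other direction was less one-sided: 150 features were positive on the other 7 arrays, and 65 on all 8. The counts with nocodazole, and several of the values, are therefore given with and without that array. No array followed the others of its condition closely. Over all features, the correlation of an array with the mean of those others lay between -0.15 and 0.04. It was -0.0044 for nocodazole replicate 1. Every one of these arrays is a ratio, so marker genes cannot show whether a line was pluripotent. The ratios of 9 of 19 markers of naive pluripotency that were tested had medians between -0.15 and 0.34 on the 8 arrays. Of their fitted ratios in untreated cells 8 were positive and 1 negative (median 0.20), 2 of them with an unadjusted p under 0.05 (Lefty1 and Gdf3) and 0 past the adjusted threshold (lowest adjusted p = 0.755 in limma's test). Gdf3 ranged from -1.73 to 4.35 on the untreated arrays. With the Cy3 arrays turned, the untreated median of these markers was 0.09. With nocodazole, deposited sign, 6 were positive and 3 negative (Sox2, Klf2 and Klf4), with a median of 0.09. Esrrb, a transcription factor of naive cells, lay between -0.13 and 0.25 untreated. It read 2.21, 2.85 and 1.02 on nocodazole replicates 2 to 4 and had no value on replicate 1 (adjusted p = 0.999).

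No solute carrier passed the test of a difference between the lines. At a Benjamini-Hochberg adjusted p under 0.05 in limma's test, 0 of 184 members passed in untreated cells, with nocodazole, for the mean of both or for the change between them, and 0% of the 14015 features passed in each. The lowest adjusted p of a member was 0.688 in untreated cells, 0.999 with nocodazole, 0.894 for the mean and 0.997 for the change. At an unadjusted p under 0.05, 5 members (2.72%) passed in untreated cells against 6.33% of all features, 2 of them positive (background 3.35%) and 3 negative (2.98%). With nocodazole 4 members (2.17%) passed against 2.91%, 3 positive (1.8%) and 1 negative (1.11%). For the mean 12 (6.52%) passed against 5.59%, 8 positive (3.16%) and 4 negative (2.43%). For the change 4 (2.17%) passed against 3.33%, 2 positive (1.64%) and 2 negative (1.69%). The members' shares therefore lay near or under those of all features. Positive and negative ratios of the members were near balance. The median fitted ratio of the 184 was 0.02 untreated and 0.0083 with nocodazole. Over all features it was -0.0005 and -0.0045, which the centring of each array sets near 0. The quartiles of the members were -0.10 and 0.19 untreated, beside -0.13 and 0.15 over all features. With nocodazole they were -0.14 and 0.14, beside -0.15 and 0.14.

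Slc13a5, the plasma membrane carrier of citrate, is described singly, although its unadjusted p was not the smallest among the members. Its 1 probe read -0.62, -0.65, -0.73 and -0.53 on untreated replicates 1 to 4, and 0.80, -0.84, -0.80 and -0.79 on nocodazole replicates 1 to 4. On 7 arrays the ratios thus lay close together and below 0, and on nocodazole replicate 1 the ratio had nearly the same size with the opposite sign. None of its 8 values was a ratio of small whole numbers. The mean was -0.63 ± 0.08 (SD, n = 4) untreated, a linear ratio of 0.645, and -0.41 ± 0.81 (SD, n = 4) with nocodazole.

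**Figure D1:**
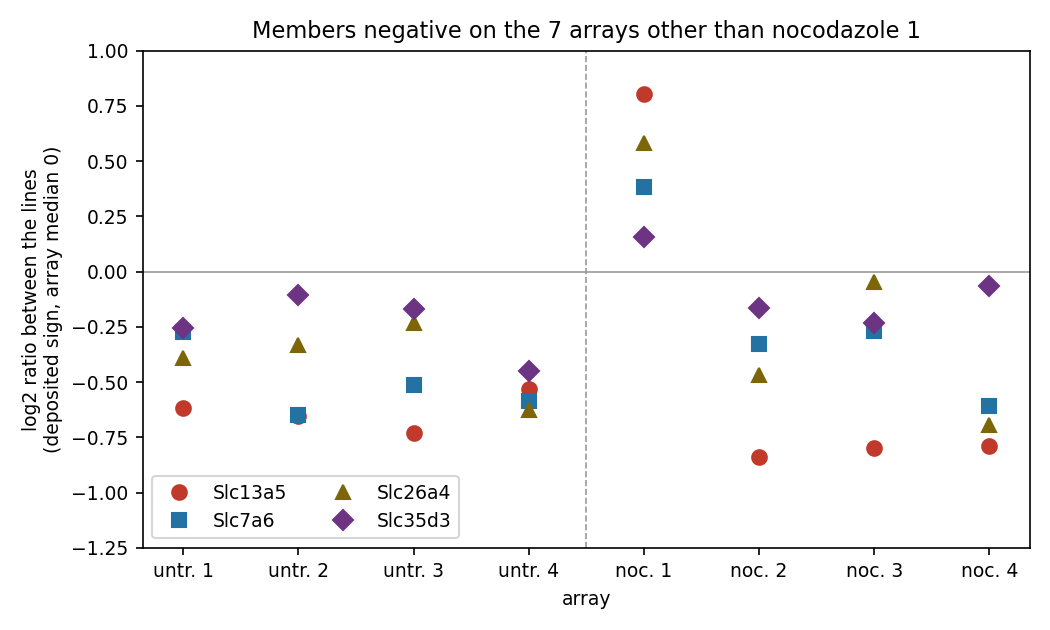
Log2 ratio between the lines (vertical axis, deposited sign, arrays centred) of Slc13a5, Slc7a6, Slc26a4 and Slc35d3 on each of the 8 arrays (horizontal axis; untr., untreated; noc., nocodazole). Each symbol is 1 gene's value on 1 array. Slc13a5 lies between -0.84 and -0.53 on 7 arrays and at 0.80 on nocodazole replicate 1.

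In the fit, which estimates the spread with a term for the dye label, the ratio of Slc13a5 was -0.63 (SE 0.28, adjusted p = 0.794) in untreated cells and -0.46 (SE 0.30, adjusted p = 0.999) with nocodazole. The mean of both was -0.55 (SE 0.20, adjusted p = 0.894) and the change 0.17 (SE 0.41, adjusted p = 0.997). Without nocodazole replicate 1 the ratio with nocodazole was -0.81 (SE 0.10, adjusted p = 0.37), the mean -0.72 (SE 0.06, adjusted p = 0.0781) and the change -0.17 (SE 0.13, adjusted p = 0.988). That array alone thus turned the sign of the change, and none of these values passed the threshold. With the Cy3 arrays turned, the ratio was -0.0012 untreated and 0.28 with nocodazole.

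The genes nearest to Slc13a5 were not carriers, but carriers were few among the genes compared. Only 157 members, Slc13a5 included, had values on all 8 arrays, beside 7487 named genes compared with it. By the root mean square difference over the 8 arrays, a measure in log2 units, the nearest of 7487 named genes were Ctsh (0.0989), a lysosomal cysteine protease, and Myo3b (0.14), a myosin. Timp2 (0.14), an inhibitor of matrix metalloproteinases, Anxa2 (0.16), a membrane-binding annexin, and Thbs1 (0.16), an extracellular glycoprotein, followed. Ctsh read -0.81 to -0.53 on 7 arrays and 0.69 on nocodazole replicate 1. The nearest carriers were Slc7a6 (0.34) at rank 39, Slc26a4 (0.38) at rank 57 and Slc26a2 (0.50) at rank 175. With so few carriers compared, these ranks do not set carriers apart from other genes.

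Of 15 tested markers of primitive, visceral and parietal endoderm, 14 had all values and 5 had the sign of Slc13a5 on every array: Ctsl, Dab2, Pth1r, Serpinh1 and Sparc. Of 11681 features with all values, 304 had these signs. The marker lists were chosen with earlier results of these data known, so the number among the markers is no independent observation. Of the 15, 13, 9, 8 and 8 were negative on untreated replicates 1 to 4. Their median (22 were listed) was -0.67, -0.32, -0.09 and -0.07 on the untreated arrays and 0.65, -0.61, -0.64 and -0.59 on the nocodazole arrays. These are values of the deposited sign. With the Cy3 arrays turned, the median fitted ratio of the endoderm markers was 0.02 untreated, beside -0.53 with the deposited sign. With nocodazole it was 0.16, beside -0.27. Dab2, an endocytic adaptor of the endoderm, read -1.21 to -0.92 untreated and 1.27, -0.82, -1.22 and -1.08 with nocodazole, and Sparc, a matrix protein, -0.97 to -0.68 untreated and 1.23 on nocodazole replicate 1. Other defining markers did not share these signs, among them Hnf4a, Amn and Col4a1. Gata6 lay between -0.53 and 0.33 and Afp between -0.28 and 0.24 on all arrays. Fibroblast markers (18 of 20 tested) had medians between -0.25 and 0.02, and 3 of 11 trophectoderm markers between -0.54 and 0.18. Turning the Cy3 arrays took the median fitted untreated ratio from -0.12 to -0.02 for the fibroblast and from -0.05 to 0.21 for the trophectoderm markers. Krt8, a keratin of the trophectoderm list, read -0.67, -0.70, -1.20 and -1.34 untreated and 1.40, -0.92, -1.27 and -1.16 with nocodazole. S100a4, of the fibroblast list, read -0.36, -0.43, -0.78 and -0.92 untreated and 0.63, -0.33, -0.88 and -0.58 with nocodazole. Both, and Thy1 of the fibroblast list, thus had the sign of Slc13a5 on every array. The part of these markers in the ratio of Slc13a5 was not tested. In RNA from whole cultures, fewer cells of a type and less RNA per cell cannot be told apart.

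Slc13a5 shared its signs with 3 other carriers. On the 7 arrays other than nocodazole replicate 1, 4 of 157 members with all values were negative throughout (2.55%, against 2.83% of 11822 features): Slc13a5, Slc26a4, Slc35d3 and Slc7a6. All 4 were positive on nocodazole replicate 1. Slc7a6 is an exchanger of basic and neutral amino acids that pairs with the heavy chain Slc3a2, Slc26a4 is pendrin, an exchanger of chloride, iodide and bicarbonate, and Slc35d3 belongs to the nucleotide sugar carriers. The opposite pattern, positive on those 7 arrays, was found for 2 members, Slc22a13 and Slc2a4 (1.27%, against 1.27%). No member had one sign on all 8 arrays, against 0.556% of features positive and 0.248% negative on all.

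The promoters of these 4 genes, whose shared pattern was no more common among members (2.55%) than among features (2.83%), are shown as a description. They come from RefSeq (GRCm38.p6), which holds an entry for 163 of the 207 members, and are 300 bases long, ending 50 bases after the most upstream start, 5′ to 3′ on the gene's strand. Capitals mark matches on either strand to the TATA box (letters TATAAA), to the CCAAT box (those letters), to the GC box (letters GGGCGG) or to the E-box (letters CACGTG), and no match overlaps another. Slc13a5 (chr11:72267112-72267411, minus strand), Slc26a4 (chr12:31559935-31560234, minus), Slc35d3 (chr10:19851410-19851709, minus) and Slc7a6 (chr8:106168604-106168903, plus) read:
Slc13a5: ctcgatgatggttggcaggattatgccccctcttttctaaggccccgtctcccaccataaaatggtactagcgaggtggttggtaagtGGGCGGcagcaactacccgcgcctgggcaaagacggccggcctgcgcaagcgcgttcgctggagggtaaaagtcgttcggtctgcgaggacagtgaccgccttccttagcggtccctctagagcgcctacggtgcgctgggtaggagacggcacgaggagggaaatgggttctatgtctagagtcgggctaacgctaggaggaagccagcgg
Slc26a4: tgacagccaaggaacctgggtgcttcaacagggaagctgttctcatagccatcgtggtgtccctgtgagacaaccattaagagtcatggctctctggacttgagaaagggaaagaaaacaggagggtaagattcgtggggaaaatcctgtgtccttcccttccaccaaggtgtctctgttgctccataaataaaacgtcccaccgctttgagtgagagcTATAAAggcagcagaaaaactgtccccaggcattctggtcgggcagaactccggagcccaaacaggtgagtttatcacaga
Slc35d3: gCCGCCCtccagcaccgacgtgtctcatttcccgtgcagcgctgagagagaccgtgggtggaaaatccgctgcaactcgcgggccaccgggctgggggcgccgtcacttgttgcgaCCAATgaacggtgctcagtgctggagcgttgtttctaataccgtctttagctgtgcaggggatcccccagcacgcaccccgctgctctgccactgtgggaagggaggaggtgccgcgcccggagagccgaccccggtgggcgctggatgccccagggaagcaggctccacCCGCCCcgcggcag
Slc7a6: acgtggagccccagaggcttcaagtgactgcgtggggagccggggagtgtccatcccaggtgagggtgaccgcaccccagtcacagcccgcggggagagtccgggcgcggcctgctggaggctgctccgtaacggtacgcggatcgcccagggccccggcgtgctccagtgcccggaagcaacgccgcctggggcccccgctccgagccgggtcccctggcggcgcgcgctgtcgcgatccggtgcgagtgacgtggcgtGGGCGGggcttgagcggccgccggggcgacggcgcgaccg

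The windows of Slc13a5, Slc35d3 and Slc7a6 are rich in G and C (60.3%, 67.7% and 75.7%) and hold 25, 27 and 41 CG dinucleotides, above the medians of 52.7% and 7 over 32851 promoters of the same length. The window of Slc26a4 has 50% G and C and 6 CG dinucleotides. A GC box match stood in 3 of them, at 2 places in Slc35d3, while 35.7% of all promoters hold one. A TATA box match stood in Slc26a4 alone (13.6% of all promoters) and a CCAAT match in Slc35d3 alone (37.4%). No E-box match stood in any of the 4 (7.15% of all promoters). A match is a description of letters and not a binding site.

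Slc7a6 read -0.27, -0.65, -0.51 and -0.59 on the untreated arrays and 0.38, -0.33, -0.27 and -0.61 on the nocodazole arrays. Its 3 probes had untreated means from -0.86 to -0.24, all below 0, and all 3 were positive on nocodazole replicate 1. This made it the member with the smallest unadjusted p for the mean of both conditions (ratio -0.39, SE 0.11, adjusted p = 0.894). With nocodazole its fitted ratio was -0.28, and -0.43 without replicate 1. Slc26a4 read -0.39, -0.33, -0.23 and -0.63 untreated, and 0.58, -0.47, -0.05 and -0.69 with nocodazole. Slc35d3 read -0.26, -0.11, -0.17 and -0.45 untreated, and 0.16, -0.17, -0.23 and -0.07 with nocodazole. The sign is shared, but the sizes of Slc35d3 on nocodazole arrays are a fraction of those of Slc13a5. With the Cy3 arrays turned, the untreated ratios of Slc7a6, Slc26a4 and Slc35d3 were 0.04, 0.03 and 0.06. Slc3a2, the shared heavy chain, lay between -0.15 and 0.18 untreated and read 0.36, -0.31, -0.33 and -0.26 with nocodazole.

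In untreated cells the members fell on both sides of 0, with 100 positive and 84 negative fitted ratios. Values of one sign on all 4 arrays were found for 6 positive members of 167 (3.59%, against 6.76% of 12565 features) and 11 negative ones (6.59%, against 7.22%). The positive ones were Slc16a3, Slc17a7, Slc22a13, Slc25a47, Slc2a4 and Slc38a2. The negative ones were Slc11a1, Slc13a5, Slc15a5, Slc25a2, Slc26a4, Slc35a4, Slc35d3, Slc6a8, Slc7a6, Slc7a8 and Slc9a3r1. Turning the Cy3 arrays gave 91 positive and 93 negative ratios, 24 members with an unadjusted p under 0.05 (13%, against 10.5% of features), and again 0 past the adjusted threshold. The splits and medians of the substrate groups below are those of the deposited sign. With the Cy3 arrays turned, the untreated median was -0.0012 over all members, -0.05 for amino acid carriers (11 positive and 17 negative), -0.21 for sugar carriers (5 and 12), -0.26 for phosphate carriers (1 and 4) and -0.40 for fatty acid carriers (2 and 2).

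**Figure D2:**
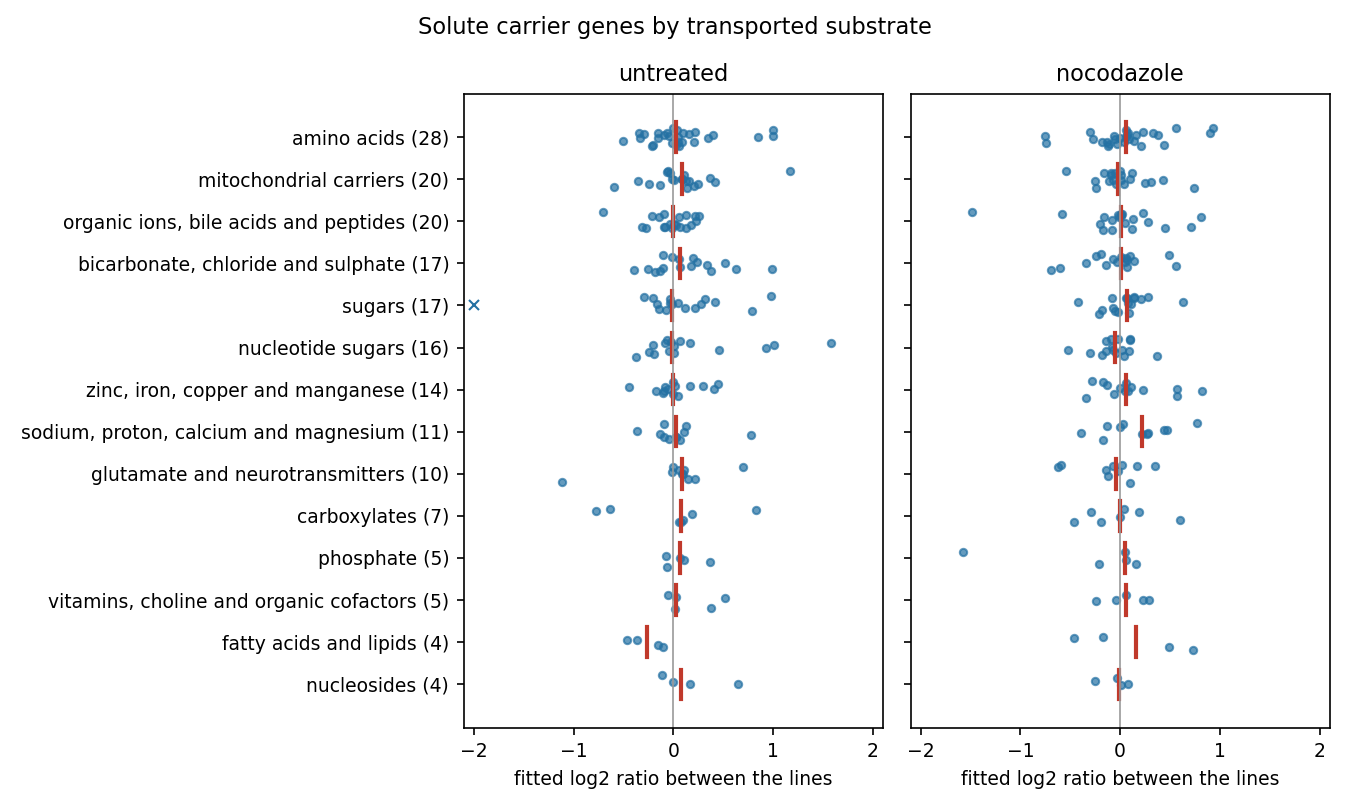
Fitted log2 ratio between the lines (horizontal axis) in untreated cells (left) and with nocodazole (right), 1 point per tested gene in 14 substrate groups (number of genes in brackets), with a red bar at the group's median and a cross for Slc37a4, past -2. In untreated cells the 4 fatty acid carriers are all negative, with a median of -0.26; with nocodazole 2 of them are positive and 2 negative.

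Among the 28 tested amino acid carriers, 15 ratios were positive and 13 negative in untreated cells (median 0.03), and 2 had an unadjusted p under 0.05, both negative: Slc7a6 and Slc6a8. Slc6a8, the creatine transporter, read -0.20, -0.55, -0.57 and -0.05 untreated and 0.19, -0.10, 0.46 and 0.28 with nocodazole. The highest untreated mean was that of Slc36a4, a carrier of proline and tryptophan, at 1.0025 ± 1.86 (SD, n = 4), which came from 1.88 and 3.19 on the arrays labelled HM-1 in Cy3 beside -0.79 and -0.27 on the others. Slc43a2, a carrier of large neutral amino acids, had a mean of 0.9977 ± 0.93 (SD, n = 4). Its pair of probes differed, with untreated means of 0.07 and 1.93.

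Carriers of glutamine and leucine had no sign in common. Slc1a5, an exchanger of glutamine and small neutral amino acids, read -1.22, -0.51, 0.36 and 0.55 untreated. Slc7a5, the light chain that pairs with Slc3a2 to import leucine, had a mean of -0.22 ± 1.03 (SD, n = 4), with -1.74 on replicate 1. Slc38a2, a sodium-coupled glutamine carrier, read 0.53, 0.03, 0.62 and 0.20 untreated but 0.38, -0.68, -0.24 and 0.85 with nocodazole. Its pair of probes had untreated means of -0.32 and 1.33, so the shared positive sign of the average is not shared by the probes.

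Carriers of glutamate and other neurotransmitters (10 tested) had 7 positive and 3 negative ratios in untreated cells, with a median of 0.09. Slc17a7, the vesicular glutamate transporter, was at the top, with 0.32, 0.34, 1.12 and 1.03 untreated and 0.46, -0.13, -0.58 and -1.89 with nocodazole. At the bottom was Slc6a11, a carrier of the transmitter GABA, with -4.30, 1.38 and 0.95 on the 3 arrays that had a value. That mean of -0.66 ± 3.16 (SD, n = 3) rests on 1 array.

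Of 17 tested sugar carriers 8 were positive and 9 negative untreated, with a median of -0.01. Slc2a3, the neuronal-type glucose transporter, read -0.68, 1.56, 0.45 and 1.83 untreated and 0.13, 2.47, -0.33 and -1.78 with nocodazole, so both signs occurred in both conditions. Slc37a3 and Slc37a4, relatives among the sugar phosphate exchangers, were the highest and the lowest, at 0.98 ± 1.62 (SD, n = 4) and -1.99 ± 1.68 (SD, n = 3). Slc2a4, the insulin-responsive glucose transporter, was positive on the 7 arrays other than nocodazole replicate 1, with probe means of 0.11 and 0.52 untreated. That sign is one of the average. One probe read -0.25 on untreated replicate 4 and -0.18 on nocodazole replicate 4, where the other read 0.31 and 1.94.

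Among 7 tested carboxylate carriers, the group of Slc13a5, 5 were positive and 2 negative untreated (median 0.08). Slc16a3, the lactate exporter of glycolytic cells, read 0.68, 1.19, 0.32 and 1.11 untreated and -0.29, 0.12, -0.15 and 0.81 with nocodazole. Its untreated ratio of 0.82 (SE 0.22, adjusted p = 0.711) had one of the smallest unadjusted p of all members, at 0.00763. It rests on 1 of 2 probes. One read 1.03, 2.12, 0.63 and 2.36, and the other 0.33, 0.26, 0.01 and -0.15. Slc16a8, a lactate carrier of epithelia, was the lowest at -0.77 ± 1.27 (SD, n = 4), with 0.88 on replicate 2.

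Of 17 tested carriers of bicarbonate, chloride and sulphate, 10 were positive and 7 negative (median 0.06). Slc12a7, a potassium-chloride cotransporter, was never below 0, with 0.98, 0.15, 0.95 and 0 untreated and 0.26, 0.01, 1.14 and 0.76 with nocodazole. Of its 8 values 3 were ratios of small whole numbers. Slc12a9, a relative of the cotransporters, read -0.20, 0.31, 0.84 and -0.01 untreated and 0.62, 0.37, 0.75 and 0.17 with nocodazole. Slc12a1, the kidney cotransporter, had the highest mean, 0.99 ± 2.19 (SD, n = 4), from 4.18 on replicate 1, and Slc26a4 the lowest.

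Mitochondrial carriers numbered 20, of which 12 were positive and 8 negative (median 0.08). Slc25a29, a carrier of basic amino acids, had the smallest unadjusted p of all members in untreated cells, at 0.00656. It read 0.62, 1.15 and 1.53 on untreated replicates 1 to 3 and -0.64, 0.27 and -0.04 on nocodazole replicates 1, 2 and 4. Of these 6 values 3 were ratios of small whole numbers. The fitted ratio was 1.17 (SE 0.25, adjusted p = 0.688) untreated. Slc25a5, a carrier that exchanges ADP and ATP, lay between -0.42 and 0.40 in untreated cells. Slc25a28, mitoferrin-2, was the lowest at -0.41 ± 2.54 (SD, n = 3).

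The 16 nucleotide sugar carriers had 8 positive and 8 negative ratios (median -0.0095). Slc35c1, which carries GDP-fucose, had the highest mean, 1.58 ± 2.89 (SD, n = 4), from 5.85 on replicate 2 beside values between -0.35 and 0.82. Slc35b4, which carries UDP-xylose and UDP-N-acetylglucosamine, had the lowest at -0.37 ± 0.34 (SD, n = 4), with probe means of -1.02 and -0.007. Slc35a5 averaged 0.93 ± 1.47 (SD, n = 4) through 1 probe that read 5.67 on untreated replicate 3.

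All 4 tested fatty acid and lipid carriers had negative untreated ratios, with a median of -0.26. Slc27a4, a fatty acid carrier with acyl-CoA synthetase activity, read 0.07, -0.20, -0.10 and -0.40 untreated and -0.73, -0.69, -0.31 and -0.18 with nocodazole. The negative sign with nocodazole comes from a probe measured on 5 arrays, at -2.05, -1.49 and -0.49 on nocodazole replicates 1, 2 and 4. The probe measured on all 8 arrays read 0.60, 0.10, -0.31 and 0.12 with nocodazole. On the arrays themselves the 4 carriers were mixed, with 1, 3, 2 and 2 of them below 0 on untreated replicates 1 to 4.

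The 14 tested carriers of zinc, iron, copper and manganese had 6 positive and 8 negative ratios (median -0.0071). Slc39a6, a zinc importer, read -0.47, -0.09, 0.39 and 0.25 untreated and 0.89, 0.19, 0.56 and 0.38 with nocodazole. Slc39a10, another importer, had the highest untreated mean, at 0.45 ± 1.26 (SD, n = 4), and Slc30a5, a zinc exporter of the Golgi, the lowest, at -0.45 ± 1.60 (SD, n = 4). The 3 probes of Slc39a10 had untreated means from -0.04 to 0.99. Slc30a1, the exporter of the plasma membrane, averaged -0.18 ± 0.21 (SD, n = 4) and the importer Slc39a14 0.16 ± 0.21 (SD, n = 4).

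The remaining groups were as mixed. Carriers of organic ions, bile acids and peptides had 10 positive and 10 negative ratios, with Slc15a5, a relative of the peptide carriers, at an unadjusted p of 0.0391 from -0.10, -0.22, -0.19 and -0.35. Carriers of sodium, protons, calcium and magnesium had 6 positive and 5 negative ratios, phosphate carriers 3 and 2, nucleoside carriers 2 and 2, and carriers of vitamins and choline 4 and 1. In these groups Slc9a2, a sodium-proton exchanger, reached 1.17 ± 2.26 (SD, n = 3), and Slc29a1, the equilibrative nucleoside transporter, 0.65 ± 0.82 (SD, n = 4), with 0.21, 0.89, -0.20 and 1.67. The 2 probes of Slc29a1 had untreated means of -0.057 and 1.725, the higher one without a value on untreated replicate 1. Slc9a3r1, the scaffold that anchors exchangers to the cytoskeleton, was negative on all 4 untreated arrays at -0.33 ± 0.08 (SD, n = 4) and read 0.63, 0.30, -0.32 and -0.17 with nocodazole.

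With nocodazole 98 members were positive and 86 negative. Without replicate 1, 96 were positive and 88 negative, and with the Cy3 arrays turned 89 and 95. One sign on all 4 arrays was found for 11 positive members of 168 (6.55%, against 6.11% of 12645 features) and 4 negative ones (2.38%, against 4.19%). The positive members were Slc12a7, Slc12a9, Slc13a4, Slc16a9, Slc1a5, Slc27a2, Slc30a9, Slc39a6, Slc4a9, Slc7a8 and Slc9a8, and the negative ones Slc20a1, Slc25a46, Slc27a4 and Slc7a5. On nocodazole replicates 2 to 4 alone, 32 of 168 members were positive throughout (19%, against 13.7% of 12857 features) and 18 negative (10.7%, against 13.8%). Slc1a5 read 0.46, 0.18, 1.91 and 0.47, above its untreated values on replicate 3 and inside their range on the others.

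The 4 members with an unadjusted p under 0.05 were Slc39a6, Slc25a45, Slc9b1 and Slc27a4. The fitted ratio was 0.57 (SE 0.18) for Slc39a6, 0.74 (SE 0.26) for Slc25a45, a mitochondrial carrier, 0.77 (SE 0.29) for Slc9b1, a sodium-proton exchanger, and -0.46 (SE 0.15) for Slc27a4, each with an adjusted p of 0.999. Without nocodazole replicate 1 these ratios were 0.44 (SE 0.17), 0.93 (SE 0.25), 1.02 (SE 0.32) and -0.39 (SE 0.16), with adjusted p of 0.923, 0.851, 0.923 and 0.923. Slc25a45 read -0.11, 0.24, 1.03 and 1.33 on the 4 arrays. Slc9b1 read 0.03, 0.92 and 1.13 on replicates 1, 3 and 4, above its untreated values of -0.91, -0.16, 0.31 and -0.70 on 2 of 3 arrays. Without nocodazole replicate 1, 11 of 185 members (5.95%) had an unadjusted p under 0.05 against 5% of 14123 features. With the Cy3 arrays turned there were 8 (4.35%, against 5.13%).

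Over both conditions 12 members had an unadjusted p under 0.05. The 8 positive ones were Slc16a3, Slc12a7, Slc25a29, Slc12a9, Slc43a2, Slc25a39, Slc39a6 and Slc25a45, with fitted means from 0.30 (Slc39a6) to 0.97 (Slc43a2). The 4 negative ones were Slc7a6, Slc27a4, Slc13a5 and Slc35b4, at -0.39, -0.31, -0.55 and -0.34. Without nocodazole replicate 1 there were 15 (8.11%, against 7.12% of features), and with the Cy3 arrays turned 19 (10.3%, against 10.5%). In that reading 7 of the 8 positive means were below 0, from -0.37 (Slc25a39) to -0.0050 (Slc43a2), and that of Slc12a9 was 0.03. Of the 4 negative means 3 were above 0, those of Slc7a6, Slc13a5 and Slc35b4, and that of Slc27a4 was -0.08.

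**Figure D3:**
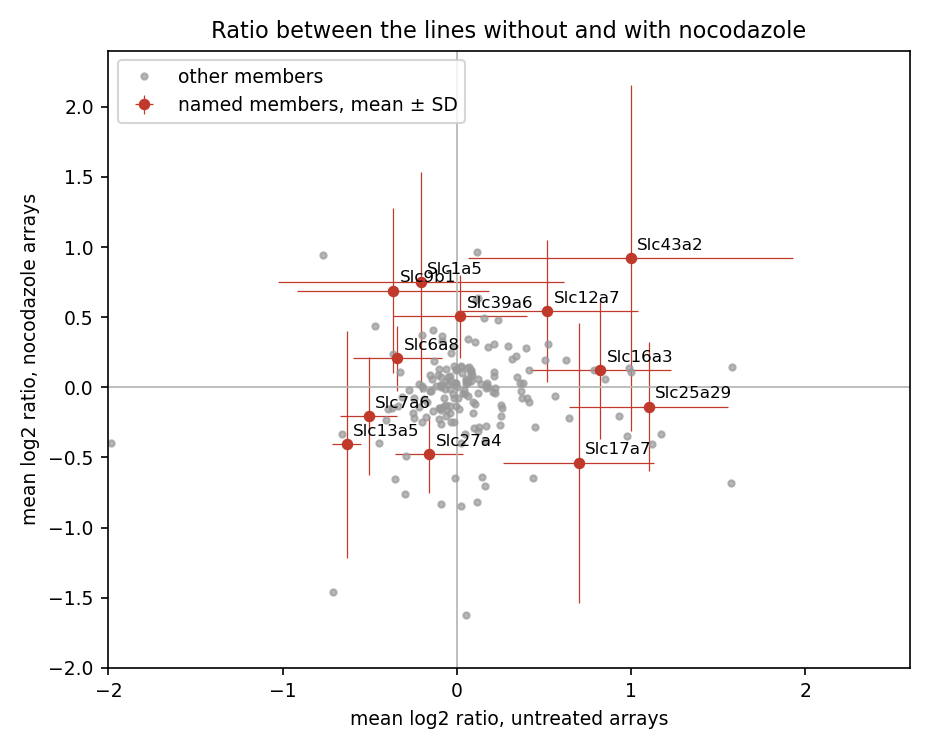
Mean log2 ratio between the lines with nocodazole (vertical axis) against untreated (horizontal axis), deposited sign, for the tested members, with bars of 1 SD over the arrays for the labelled genes (red) and none for the others (grey). Slc13a5 and Slc7a6 lie below 0 on both axes, and Slc16a3 and Slc25a29 lie right of 0 with a nocodazole mean near 0.

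The change of the ratio between conditions, nocodazole minus untreated, had a median of -0.03 over the members and -0.0048 over all features. It is not an effect of the drug on a gene, since the same change follows from a rise in one line or a fall in the other. Values of Slc6a8 went from -0.34 ± 0.26 (SD, n = 4) to 0.21 ± 0.23 (SD, n = 4), a fitted change of 0.57 (SE 0.20, adjusted p = 0.997). The change was 1.13 (SE 0.39) for Slc9b1, -1.24 (SE 0.34) for Slc25a29 and -1.32 (SE 0.53) for Slc17a7, each with an adjusted p of 0.997. These 4 were the members with an unadjusted p under 0.05. Without nocodazole replicate 1 these changes were 0.57 for Slc6a8, 1.39 for Slc9b1, -1.03 for Slc25a29 and -1.60 for Slc17a7. In that fit 4 members had an unadjusted p under 0.05 (2.16%, against 3.37% of features), Slc6a8 and Slc25a29 not among them, and with the Cy3 arrays turned there were 7 (3.8%, against 4.94%).

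The conditions did not overlap for 2 of 157 members, both higher with nocodazole (1.27%, against 1.05% of 11681 features), and for 0 that were lower (against 1.03%). These were Slc15a5, with -0.35 to -0.10 untreated against 0.08, 0.04, -0.05 and 0.03, and Slc7a8, an exchanger of neutral amino acids and thyroid hormone. Slc7a8 read -0.32, -0.27, -0.01 and -0.01 untreated and 0.13, 0.04, 0.10 and 0.10 with nocodazole. It alone of the 157 was negative on all untreated and positive on all nocodazole arrays (0.637%, against 0.171% of features). The fitted change was 0.29 (SE 0.12, adjusted p = 0.997), and both group means, -0.15 and 0.09, are small. Without nocodazole replicate 1 the change was 0.26 for Slc7a8 and 0.21 for Slc15a5.

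The members followed the dye label in the same proportion as all features. The part of the ratio that followed the label of HM-1 had an unadjusted p under 0.05 for 17 members (9.24%, against 9.16% of features), 5 positive (background 3.12%) and 12 negative (6.04%), and 0 passed the adjusted threshold (lowest adjusted p = 0.442). All 5 arrays with HM-1 in Cy5 lay above all 3 with it in Cy3 for 11 of 157 members (7.01%, against 6.95%), among them Slc2a8, Slc19a1 and Slc35a1, and below them for 8 (5.1%, against 4.22%), among them Slc11a2, Slc25a39 and Slc38a9. For Slc35a1, which carries CMP-sialic acid, the untreated values were -0.07 and 0.16 on the Cy5 arrays and -0.46 and -0.42 on the Cy3 arrays. For Slc25a39, a mitochondrial carrier of glutathione, they were -0.08 and -0.22 against 1.50 and 0.45.

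The spread between arrays set how small a ratio could be told from 0. The median standard deviation of a member over the arrays was 0.41, beside 0.42 for all features, and 31 members (16.8%) spread by more than 1, beside 18% of features. Spread went with the share of a member's values that were ratios of small whole numbers. The 73 members without any ratio of small whole numbers had a median standard deviation of 0.33, the 73 with under 25% such values 0.37, and the 38 with 25% or more 0.91. Few quotients of whole numbers up to 10 lie close to 0 on the log scale, so members of narrow spread near 0 had few chances to match. The link is therefore partly built in. Chance matches add to the classes, since 4.38% to 5.03% of an array's values matched after the shift. Whether dim spots spread more was not tested, as no intensities were used. Slc13a5 and Slc26a4 had narrow spreads over the untreated arrays alone (0.08 and 0.17). Over all 8 arrays theirs were 0.54 and 0.40, above the median of 0.33 of their class, the members without such values. Slc36a4, Slc37a3 and Slc35c1 owe their high means to 1 or 2 arrays.

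**Figure D4:**
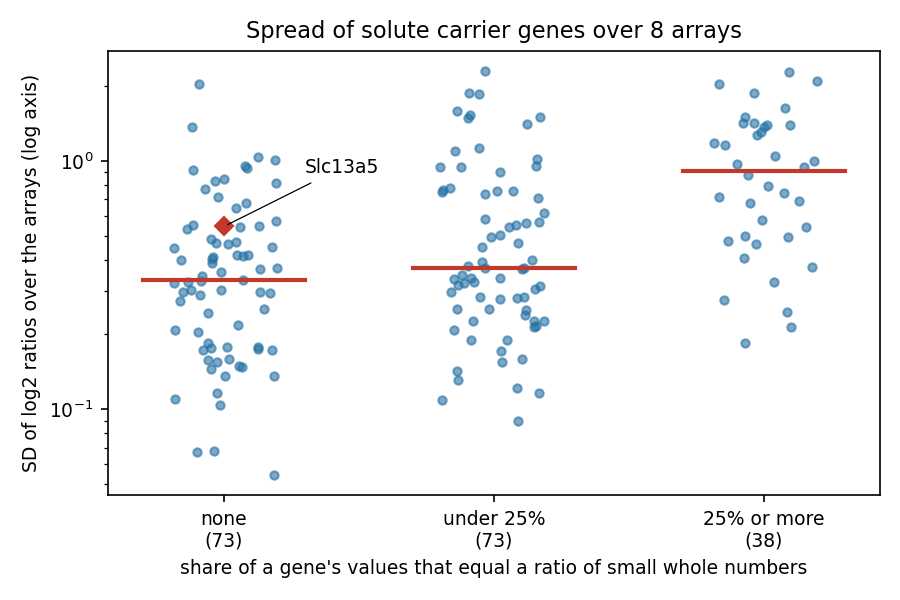
Standard deviation of the log2 ratio over the arrays (vertical axis, log scale) for 1 point per tested member, in 3 classes by the share of its values that are ratios of small whole numbers (horizontal axis, number of members in brackets), with a red bar at the median of each class. Members with 25% or more such values have a median standard deviation of 0.91, those with none 0.33.

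Probes of one gene often differed. Of 53 tested members with several probes, the untreated probe means had one sign for 25 and both signs for 28. Slc25a51 ranged from -0.0022 to 2.93, Slc39a7 from -0.20 to 3.27 and Slc30a6 from -0.14 to 3.77 between probes. Slc7a6 and Slc25a46, with 3 probes each, and Slc29a3, with 2, had probes of one sign, from -0.86 to -0.24, -0.37 to -0.02 and -0.15 to -0.08.

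Genes that work with the carriers were no clearer. Of 15 genes of citrate use and fatty acid synthesis 12 were tested, 6 positive and 6 negative untreated (median -0.0047), and 0 passed the adjusted threshold in any comparison. Me1, the cytosolic malic enzyme, read -0.29, -0.19, -0.53 and -0.64 untreated and 0.72, -0.69, -0.62 and -0.68 with nocodazole, the signs of Slc13a5 on every array. Acly, which cleaves cytosolic citrate, averaged -0.08 ± 0.18 (SD, n = 4) untreated. Idh1, which oxidises isocitrate in the cytosol, read -0.03, -0.83, -0.96 and -3.66 with nocodazole.

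Of 10 sodium-potassium ATPase genes 4 were tested, 3 positive and 1 negative untreated. The negative one, the subunit Atp1b3, read -1.70, -0.56, -0.51 and -0.34, and -0.85, 0.68, -0.66 and 0.85 with nocodazole. Of 12 organic anion carriers of the Slco family 7 were tested, 3 positive and 4 negative (median -0.03). Of 12 carrier chaperones and scaffolds, a list that also holds Slc9a3r1 and Slc9a3r2, 7 were tested, 3 positive and 4 negative (median -0.17), and the lactate carrier chaperone Bsg read -0.13, 1.03, 0.35 and -0.70. Amino acid sensing and stress genes gave 9 positive and 5 negative ratios among 14 tested of 16 (median 0.10), with Sesn1, a leucine-responsive inhibitor of mTOR signalling, at 0.62, 1.50, 0.95 and 1.10 untreated and 0.26, 1.14, -1.83 and -0.17 with nocodazole. Metallothioneins and metal-handling genes gave 3 positive and 4 negative among 7 tested of 10 (median -0.01). None of these genes passed the adjusted threshold.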

How the data were processed

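RNA of HM-1 and R1 was hybridised together on 8 two-colour cDNA arrays, per the labels. The deposited values are log2 ratios, 1 per probe and array. Which software, background correction and normalization the authors applied is not given in the sources used here. That the scale is log2 follows from the values themselves. A ratio with a denominator of 0 is coded 1e+05, and values past 10 on the log2 scale were set to missing. Of 20355 probes 14030 had 1 symbol in the platform annotation. Probes of one symbol were averaged per array, and each array was centred on its median.

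limma (version 3.58.1, R 4.3.3) fitted a coefficient per condition and a dye term over all 8 arrays, with empirical Bayes variances, two-sided p-values and Benjamini-Hochberg adjustment over all 14015 features (threshold 0.05). The replicate number was not taken as a pairing, since the correlations of same-numbered deviations, 0.14, 0.04, -0.05 and 0.13, were not all above 0.1. Replicate number 3, at -0.05, alone had HM-1 in a different dye in each condition, so dye and pairing cannot be told apart there. The labels swap dyes on 37.5% of the arrays, the design text on 50%.

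Named are Slc13a5, members by smallest unadjusted p of each sign in each comparison, the highest and lowest untreated mean of each substrate group of at least 5 tested members, and general carriers of embryonic stem cells. Substrate groups, members and gene lists were chosen with earlier results of these data known. Alternatives were the sign of the Cy3 arrays, dye term, array weights, centring, scaling, coded values, missing-value filters, single probes, replicate block, robust variances and leaving out each array.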

Additional observations from a re-analysis of the deposited data

Results flagged for a closer look

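Within the 105 groups of 4 arrays examined for the members named here, 10 held an array far from the other 3 (Dixon's ratio of the gap to the range at 95%). A rate of 1 in 20 would give 5.2. Many of these members were named for their means or p-values on the same arrays, Slc17a1 as the lowest phosphate carrier. That rate therefore does not hold for them, and 10 cannot be set against 5.2. On nocodazole replicate 1, Slc13a5 read 0.80 beside -0.84 to -0.79, Slc25a5 0.36 beside -0.27 to -0.18, and Slc3a2 0.36 beside -0.33 to -0.26. On nocodazole replicate 3, Slc12a8 read 0.054 beside -0.13 to -0.11, Slc1a5 1.91 beside 0.18 to 0.47, and Slc22a23 -5.74 beside -0.14 to 0.06. On nocodazole replicate 4, Slc35c1 read 0.55 beside -0.04 to 0.05 and Slc39a7 1.73 beside -0.32 to -0.09. On untreated replicate 2, Slc17a1 read -1.55 beside 0.24 to 0.56 and Slc4a9 2.23 beside -0.03 to 0.30. The Slc39a7 value is an average over a second probe, which read 3.49 on that array. For Slc22a23, nocodazole replicates 3 and 4 were measured by 1 probe alone, replicate 1 by another alone, and replicate 2 by both. Of the 5 values of the probe on replicates 3 and 4, 3 were ratios of small whole numbers.

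Slc7a8 was negative on every untreated and positive on every nocodazole array, a fitted change of 0.29 (adjusted p = 0.997 in limma).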

How the results depend on the processing

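No member passed the adjusted threshold as reported or under any alternative run. Over all features, 1 passed with nocodazole when values on all 8 arrays were required, and 1 for the dye label with array weights, neither a member. The number of members with an unadjusted p under 0.05 ranged over the alternatives from 4 to 24 untreated, 3 to 12 with nocodazole, 7 to 19 for the mean, 2 to 8 for the change and 11 to 21 for the dye label. Leaving out 1 array moved the untreated number from 5 to 13 (untreated replicate 1), 11 (2) or 13 (4), that with nocodazole from 4 to 11 (nocodazole replicate 1) or 12 (4), and that for the mean from 12 to 7 (untreated replicate 2, nocodazole 2 or 3). The number for the change went from 4 to 7 (untreated replicate 1 or 2, nocodazole 4) or 2 (nocodazole 3), and that for the dye label from 17 to 11 (untreated 2 or 3). With the replicate block these numbers were 10, 7, 11, 5 and 17, and Slc13a5 was -0.63 untreated (adjusted p = 0.668), -0.31 with nocodazole, -0.47 for the mean and 0.32 for the change. The labels do not say what the replicate number stands for. Among the 4 arrays of the other condition, 6 of 8 arrays correlated best with the array of their own number. A pairing is therefore not excluded.

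Signs changed in 47 cases, 36 of them on turning the Cy3 arrays. In untreated cells that reading gave Slc25a29 -0.10, Slc35a5 -0.90, Slc36a4 -1.53, Slc25a39 -0.56, Slc17a7 -0.37, Slc43a2 -0.43, Slc7a6 0.0446, Slc15a5 0.051, Slc35d3 0.0643, Slc22a16 0.11, Slc9a3r1 0.0628, Slc26a4 0.0345, Slc35a1 0.24 and Slc35b4 0.10. With nocodazole it gave Slc13a5 0.28, Slc25a45 -0.26, Slc9b1 -0.0949, Slc12a7 -0.12, Slc35e3 -0.19, Slc39a7 -0.82, Slc6a17 -0.23, Slc4a2 0.29, Slc20a2 0.43, Slc7a6 0.32, Slc17a7 0.42 and Slc35b4 0.56. For the mean it gave Slc13a5 0.14, Slc16a3 -0.24, Slc12a7 -0.0358, Slc25a29 -0.20, Slc43a2 -0.005, Slc7a6 0.18, Slc35b4 0.33 and Slc26a4 0.20. For the change it gave Slc17a7 0.79 and Slc20a2 1.16. Fitting each probe on its own gave Slc22a16 0.0042 untreated, and with nocodazole Slc39a7 -0.064, Slc6a17 -0.0971 and Slc27a4 0.0489, and for the mean Slc16a3 -0.0089 and Slc27a4 0.0347. Keeping the coded values gave Slc6a17 -0.0052 with nocodazole. Leaving out nocodazole replicate 1 gave Slc13a5 -0.17 for the change. Leaving out nocodazole replicate 4 gave Slc20a2 0.031, Slc17a7 0.29 and Slc35b4 0.0363 with nocodazole. Over leaving out each array in turn, Slc13a5 ranged from -0.17 to 0.36 for the change, Slc17a7 ranged from -0.90 to 0.29 with nocodazole, Slc20a2 ranged from -2.04 to 0.031 with nocodazole and Slc35b4 ranged from -0.38 to 0.0363 with nocodazole. The cause was not tested. The number of arrays limits the precision.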

Other observations

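Some carriers of central metabolism had too few values for a test, and their readings are given as values. Slc25a1, the mitochondrial citrate carrier that supplies cytosolic citrate from within the cell, read -0.22 on untreated replicate 4 and 0.47, -1.51 and -1.53 on nocodazole replicates 2, 3 and 4. Slc16a1, the widely expressed lactate carrier, read -1.90 on the first and 0.14 on the third untreated array, then 1.82, -1.30 and -2.04 on nocodazole replicates 1, 2 and 3. Slc12a2, the sodium-potassium-chloride cotransporter, read -2.90 on untreated replicate 2 and -5.12, -3.32 and 4.27 on nocodazole replicates 2, 3 and 4. Slc6a6, the taurine transporter, read -1.15 on the first and 0 on the fourth untreated array, then -0.16, 0.13, -0.44 and 0.14 on the nocodazole arrays. Slc1a3, the glial glutamate carrier, read 0.46 on untreated replicate 1 and -0.46, -0.51 and -0.10 on nocodazole replicates 1, 2 and 4. In each of these genes both signs occurred.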
